A study of Mus musculus with 6 samples.

Results

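Intermediate filament and lamin genes were followed in primary mouse vascular smooth muscle cells that overexpressed the microRNA miR-128. The members are 9 of the 16593 genes annotated on the array, namely the cytoplasmic filament genes Vim, Des, Synm and Nes, the simple-epithelial keratins Krt8 and Krt18, and the nuclear lamins Lmna, Lmnb1 and Lmnb2. All probes annotated to one of these symbols were taken, which gave 17 of the 25697 probes on the array. Lmna had 5 probes, Synm had 3, Nes and Lmnb1 had 2 each, and every other member had 1.

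The cells came from C57BL/6J mice aged 8 weeks. The labels give them as vascular smooth muscle cells and name no vessel. Cultures of the mir128 group received lentivirus that carries miR-128, and cultures of the shScr1 and shScr2 groups received lentivirus with a scrambled miRNA. The labels do not say how the scrambled constructs shScr1 and shScr2 differ. All 3 groups, controls included, were kept under puromycin for 2 days, and RNA was taken at 5 days. Each group has 2 arrays, A and B, described as biological replicates. Nothing says that they came from separate animals or cultures, so the p-values measure only the spread between these arrays.

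Intermediate filaments are rope-like polymers that give cells and nuclei their resistance to stretch. In the cytoplasm, vimentin and desmin form the filaments of smooth muscle cells, and synemin and nestin join them only as co-polymers. In the nucleus, lamins A and C, which both come from Lmna, and the B-type lamins from Lmnb1 and Lmnb2 form the lamina under the inner nuclear membrane.

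MicroRNAs pair with messenger RNAs mainly through the seed, bases 2 to 8 from the 5′ end. The labels name miR-128 without an arm. The mature 3p arm is shown because it is the sequence the study's microRNA is named for, and its seed is in capitals. It is 21 bases long, and RefSeq on GRCm38.p6 places it at Mir128-1, chr1:128202404-128202424 on the plus strand, and at Mir128-2, chr9:112118644-112118664 on the minus strand. Both loci give the same letters, and sites for the seed in the members' transcripts were not analysed here.
mmu-miR-128-3p: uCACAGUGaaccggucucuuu

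Levels are log2 intensities after background correction and quantile normalization, and a probe counts as detected on an array at a detection p under 0.05. Between 11589 and 13277 probes were detected per array, the most of them on mir128 array A. That array also had the highest upper quartile of raw intensity, 373, against 247 on mir128 array B and 201 to 252 on the 4 scrambled arrays. Over the probes tested, arrays A and B differed with an SD of 0.54 in the mir128 group, whereas this SD was 0.29 for shScr1 and 0.32 for shScr2, so results that rest on mir128 array A are also given without it. Of 10 smooth muscle contractile markers, 8 were detected on both mir128 arrays and 5 on all 4 scrambled arrays. Myh11 and Mylk, which encode smooth muscle myosin heavy chain and the kinase that activates myosin, were detected on both mir128 arrays and, by these probes, not well above background on any scrambled array, where Acta2, Tagln, Actg2, Smtn and Cald1 were detected. Calponin, Cnn1, was detected on no array.

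Among the members, 9 probes were detected on all 6 arrays, and they belong to Vim, Lmna, Lmnb1 and Lmnb2. The other 8 probes, for Des, Synm, Nes, Krt8 and Krt18, were detected on 0 to 4 arrays. A probe entered the test with detection on at least 2 arrays, which left 15 of 17 member probes. The exceptions were Nes ILMN_2904590, detected on no array, and Synm ILMN_2636266, detected on mir128 array B alone. Vim had raw intensities of up to 12517, below the highest value on any array, 29802 to 35362.

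**Figure D1:**
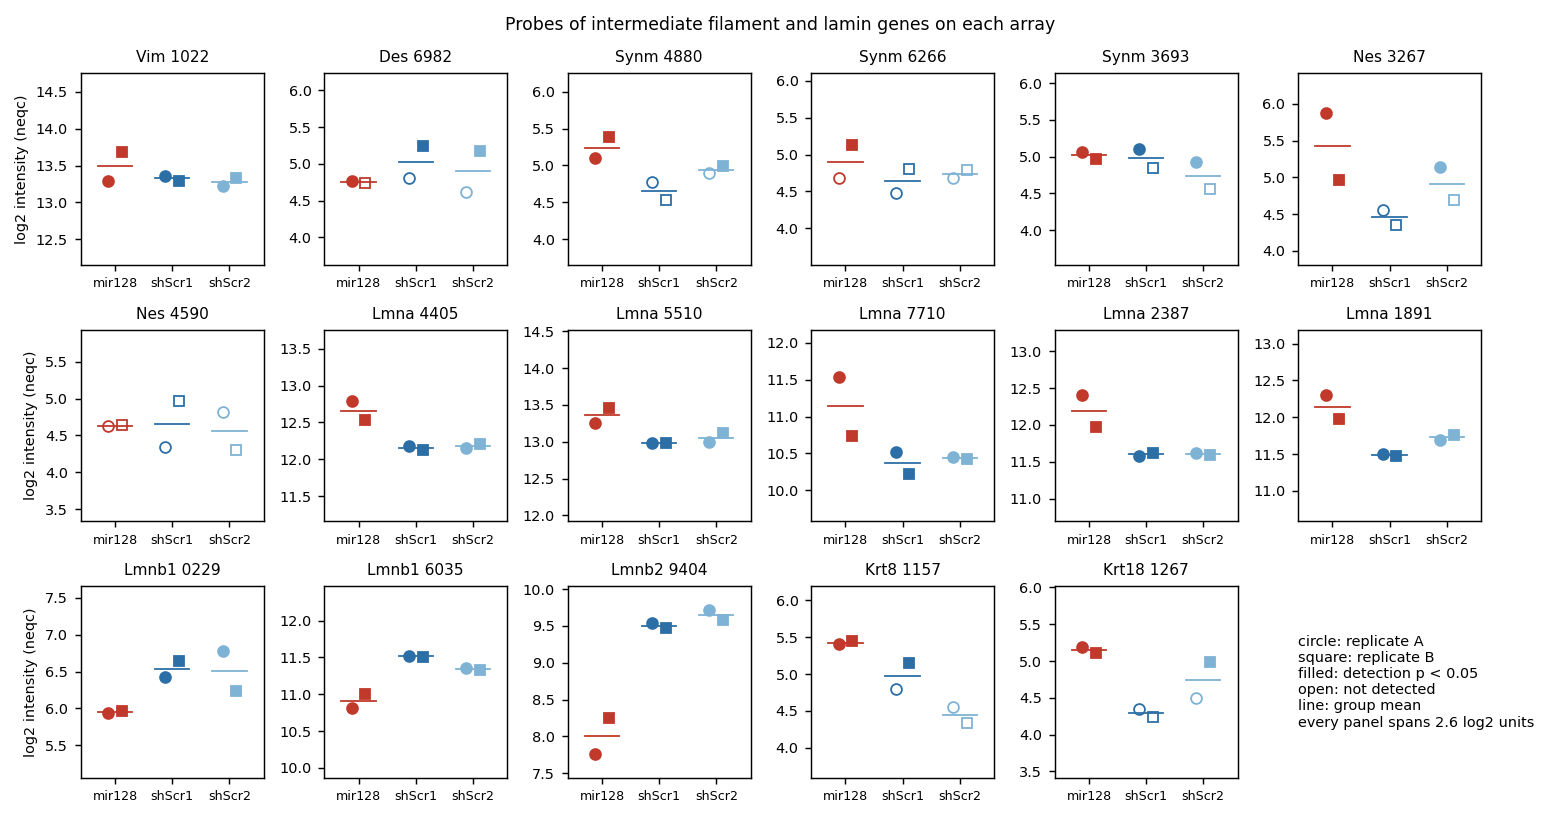
Log2 normalized intensity (vertical axis) of member probes on each of the 6 arrays, with mir128 on the left, then shScr1 and shScr2. Panels are headed by the gene and the last 4 digits of the probe ID; each point is 1 array (filled where the probe was detected) and each line a group mean. Both mir128 points of Lmnb2, at 7.77 and 8.25, lie under the 4 scrambled points, at 9.47 to 9.71, whereas the 3 groups of Vim overlap.

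The lamins changed in opposite directions under miR-128. Lmnb2, the gene of lamin B2, fell about 3-fold against the mean of both scrambled groups. Lmnb1 was lower by less on its 2 probes, of which 1 passed an adjusted p of 0.05. Lmna was higher on all 5 of its probes, of which 2 passed. Against the mean of both scrambled groups, the Lmnb1 and Lmna calls were lost without any 1 of the scrambled arrays, and the Lmnb2 call was not. Of the 15 member probes tested, 6 passed an adjusted p of 0.05 in mir128 against the mean of both scrambled groups, 4 higher and 2 lower, beside 26.5% of all 13236 probes tested, 13.4% higher and 13.1% lower. Against shScr1 alone 4 passed, 2 in each direction, beside 20.5% of all probes, 10.3% higher and 10.2% lower, and against shScr2 alone 2 passed, 1 in each direction, beside 18.6%, 9.66% higher and 8.91% lower. These comparisons share the mir128 arrays, so they are not independent of each other. Counts of passing members include probes that entered the test only through their mir128 arrays, and over the 9 probes detected on every array the counts were 4, 3 and 1. With the fit limited to the 10139 probes detected on every array, 5, 3 and 1 member probes passed, beside 3269, 2623 and 2417 of all. Both mir128 arrays lay above or below all 4 scrambled arrays for 11 of the 15 probes, 8 above and 3 below, beside 46.2% of all probes tested, 22.8% above and 23.4% below. Of the 8 above, Synm ILMN_1214880, Krt8 and Krt18 entered the test only through their mir128 arrays, and the rest are probes of Lmna. Over the 9 probes detected on every array, 5 lay above and 3 below. The share over all probes of that kind is not given here. Leaving out 1 array leaves 1 array in its group. The number of probes past the threshold against the mean then changed both among the members and over all probes. Member calls lost in this way are given with each gene below.

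Lmnb2 ILMN_2669404 read 7.77 and 8.25 on the mir128 arrays, against 9.54 and 9.47 on the shScr1 arrays and 9.71 and 9.58 on the shScr2 arrays. Both mir128 arrays were low and the 4 scrambled arrays lay close together, with no overlap. The mean was 8.01 ± 0.34 in mir128 (SD, n = 2) and 9.58 ± 0.10 over the scrambled arrays (SD, n = 4). Limma's moderated test, with Benjamini-Hochberg adjustment over all probes tested, gave a log2 change of -1.57 ± 0.18 (SE) against the mean of both scrambled groups, adjusted p 0.00294, with a 95% interval of -2.00 to -1.13. That is 2.96-fold lower. Against shScr1 alone the log2 change was -1.50 ± 0.21 with adjusted p 0.00662, and against shScr2 alone it was -1.63 ± 0.21 with adjusted p 0.00561. The call against the mean held under all 18 alternatives, with log2 changes from -1.81 to -0.88. The call against shScr1 alone was lost without either shScr1 array, at adjusted p 0.0646 and 0.0700, and that against shScr2 alone without either shScr2 array, at 0.0503 and 0.0580. The smallest change against the mean came from the authors' processed values, on their own scale. These are bulk cultures, so fewer cells of a type and less RNA per cell cannot be told apart, here or for any result that follows.

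The RefSeq promoter of Lmnb2 is shown as that of the member with the largest called change. The line gives the 100 bases before its annotated start, chr10:80918246-80918345 on the minus strand of GRCm38.p6, with a GGGCGG box in capitals that begins 7 bases before the start. A GGGCGG box on either strand was present within 250 bases before the start in 32.7% of 32851 promoters, and also in those of Des and Nes. The promoters of Lmna and Lmnb1 were not searched.
Lmnb2: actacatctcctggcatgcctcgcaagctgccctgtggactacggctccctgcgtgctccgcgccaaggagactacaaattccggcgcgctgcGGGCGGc

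Lmnb1 encodes lamin B1, the other B-type lamin. Its probe ILMN_2916035 read 10.81 and 11.00 on the mir128 arrays, against 11.52 and 11.51 for shScr1 and 11.36 and 11.33 for shScr2. Both mir128 arrays lay below all 4 scrambled arrays. The log2 change was -0.52 ± 0.14 against the mean, with limma's adjusted p 0.0372, and -0.61 ± 0.16 against shScr1, adjusted p 0.0434. Against shScr2 it was -0.44 ± 0.16 and did not pass, adjusted p 0.107. The dimmer probe ILMN_2720229 read 5.94 and 5.96 in mir128, against 6.43 and 6.65 in shScr1 and 6.78 and 6.23 in shScr2. These groups did not overlap either, and its log2 change of -0.57 ± 0.19 against the mean did not pass, adjusted p 0.0710. The call of ILMN_2916035 against the mean was lost with arrays scaled to a common median, where the log2 change was -0.41 and the adjusted p 0.130, and with array weights, at 0.103. It was also lost without mir128 array A, at -0.43 and adjusted p 0.0675, and without any 1 of the 4 scrambled arrays, with adjusted p 0.107 to 0.120. The call against shScr1 was lost without any array but mir128 array B, at 0.0605 to 0.208.

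Lmna encodes lamins A and C, and 4 of its 5 probes are annotated to one transcript and ILMN_3121891 to another. All 5 were detected on every array, and on all 5 both mir128 arrays lay above the 4 scrambled arrays. ILMN_3121891 read 12.30 and 11.98 in mir128, against 11.50 and 11.48 in shScr1 and 11.69 and 11.77 in shScr2. Its log2 change against the mean was 0.53 ± 0.16, which is 1.45-fold, with limma's adjusted p 0.0470. Against shScr1 the change was 0.65 ± 0.18, adjusted p 0.0470, and against shScr2 it was 0.41 ± 0.18, adjusted p 0.152. The call against shScr1 was lost without any array but mir128 array B, at 0.0701 to 0.216.

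ILMN_2662387, the other Lmna probe to pass, read 12.41 and 11.97 in mir128, against 11.58 and 11.63 in shScr1 and 11.63 and 11.60 in shScr2. Mir128 array A stood above array B on this Lmna probe, and the scrambled arrays lay within a narrow band. The log2 change against the mean was 0.58 ± 0.17, or 1.50-fold, with adjusted p 0.0475 in limma. Against shScr1 and against shScr2 alone it did not pass, with log2 changes of 0.59 and 0.58 and adjusted p 0.0801 and 0.0863. Against the mean, ILMN_2662387 and ILMN_3121891 each passed in only 7 of 16 alternatives.

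The 3 other Lmna probes did not pass in any comparison. ILMN_1254405 read 12.79 and 12.53 in mir128, against 12.19 and 12.13 in shScr1 and 12.15 and 12.20 in shScr2, a log2 difference of 0.49 ± 0.15 from the mean with adjusted p 0.0518. ILMN_1255510 read 13.26 and 13.46 in mir128, against 12.98 and 12.98 in shScr1 and 13.00 and 13.11 in shScr2, a log2 difference of 0.34 ± 0.15 with adjusted p 0.129. This probe had the smallest difference of the 5, and ILMN_2597710 the largest. ILMN_2597710 read 11.54 and 10.74 in mir128, against 10.52 and 10.22 in shScr1 and 10.45 and 10.42 in shScr2, a log2 difference of 0.73 ± 0.24 with adjusted p 0.0666. Its 2 mir128 arrays were further apart than any array pair of the scrambled groups. Without mir128 array A, the log2 changes against the mean were 0.36 for ILMN_2662387, adjusted p 0.104, 0.37 for ILMN_3121891, adjusted p 0.0999, and 0.34 for ILMN_2597710, adjusted p 0.199. Without mir128 array B, the log2 change was 0.80 for ILMN_2662387, 0.69 for ILMN_3121891 and 1.13 for ILMN_2597710, with adjusted p 0.0101, 0.0158 and 0.00799. Both calls were also lost without any 1 of the scrambled arrays, with adjusted p 0.115 to 0.138, and with arrays scaled to a common median, at 0.109 for ILMN_2662387 and 0.105 for ILMN_3121891.

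**Figure D2:**
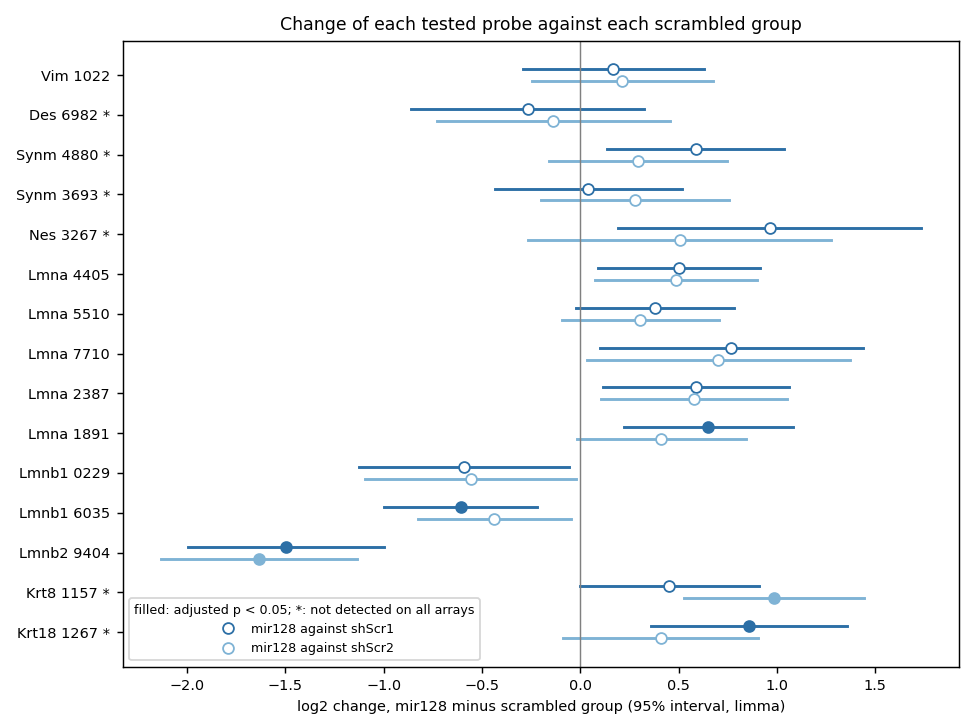
Log2 change (horizontal axis) of each tested member probe in mir128 against shScr1 (dark) and against shScr2 (light), with bars for 95% intervals from limma, filled points for an adjusted p under 0.05 and asterisks for probes not detected on all arrays. Lmnb2 lies furthest to the left at -1.50 and -1.63, the 5 Lmna probes lie to the right of 0, and both Vim intervals span 0.

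Vim encodes vimentin, the main cytoplasmic filament protein of cultured mesenchymal cells. Its probe ILMN_2451022 read 13.30 and 13.69 in mir128, against 13.37 and 13.29 in shScr1 and 13.22 and 13.34 in shScr2. Mir128 array B was the highest of the 6, array A lay within the scrambled range, and the groups overlapped. The log2 difference from the mean was 0.19 ± 0.17, with a 95% interval of -0.21 to 0.59 and limma's adjusted p 0.438. It was 0.17 from shScr1 and 0.21 from shScr2, with adjusted p 0.576 and 0.471. Without mir128 array B the Vim difference from the mean was -0.01. The interval spans both signs, so the value does not show that Vim was equal between groups.

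The Vim promoter is shown beside that of Lmnb2 as that of a member that did not pass. It was the only one with a TATAAA among the 7 promoters searched, which leave out Lmna and Lmnb1. The line gives the 100 bases before the annotated start from RefSeq, chr2:13574211-13574310 on the plus strand of GRCm38.p6. Capitals mark CCAAT read on the other strand, which begins 94 bases before the start, and TATAAA, which begins 32 bases before it. Of 32851 promoters, 33.8% held CCAAT and 12.4% held TATAAA on either strand within 250 bases before the start, and Synm also held a CCAAT. The promoters of Krt8 and Krt18 held neither of these motifs nor GGGCGG. The AP-1 motif TGANTCA, present in 6.75% of promoters, and the CArG box, present in 1.47%, were in none of the 7 windows.
Vim: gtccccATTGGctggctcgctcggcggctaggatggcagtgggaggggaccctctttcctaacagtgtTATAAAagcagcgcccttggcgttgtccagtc

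Des encodes desmin, the filament protein that marks differentiated muscle. ILMN_2836982 read 4.77 and 4.75 in mir128, against 4.81 and 5.24 in shScr1 and 4.62 and 5.18 in shScr2. It was detected on 3 arrays, 1 in each group, and the mir128 values lay inside those of shScr2 and just below those of shScr1. The log2 difference from the mean was -0.20 ± 0.21, with a 95% interval of -0.72 to 0.31 and limma's adjusted p 0.521. These readings lie close to the lowest signals detected on the arrays, 4.71 to 4.98. Measured so near the background, the difference does not show that Des was equal between groups. On the same arrays 7 of 8 tested contractile markers were higher in mir128 than in the mean of both scrambled groups and none was lower, but Myh11, Mylk and Lmod1 entered the test only through their mir128 arrays. With detection required on all 6 arrays the count was 4. These counts stand beside 27.5% past the threshold over all 9010 genes taken by their brightest probe, 14.7% higher and 12.8% lower. Tagln, the gene of transgelin, a protein that binds actin, read 9.79 and 10.13 in mir128, against 4.90 and 5.10 in shScr1 and 5.27 and 5.57 in shScr2. Its log2 change was 4.75 ± 0.18, adjusted p 0.00015. Actg2, the smooth muscle gamma actin, changed by 5.11 ± 0.22 on the log2 scale, adjusted p 0.000203, and Smtn, which encodes smoothelin, by 1.36 ± 0.16, adjusted p 0.00303. The other Smtn probes gave 1.17 and 0.74, and the latter did not pass, limma's adjusted p 0.243. Lmod1, which encodes the actin-nucleating leiomodin, read 8.42 and 8.03 on the mir128 arrays, was detected on 1 of 4 scrambled arrays, and was at least 9.80-fold higher in mir128 than in shScr1. The background-corrected intensities of the 10 contractile markers summed to 26736 to 35195 on the mir128 arrays and 11746 to 21638 on the scrambled arrays. Most of this sum came from Acta2, which read 14.39 and 14.82 in mir128, against 14.32 and 14.34 in shScr2. Its log2 change was 1.12 against shScr1, limma's adjusted p 0.0134. Against shScr2 the Acta2 difference of 0.27 did not pass, adjusted p 0.37.

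Synm encodes synemin, which links desmin and vimentin filaments to adhesion sites. ILMN_1214880 read 5.09 and 5.38 in mir128, against 4.78 and 4.52 in shScr1 and 4.89 and 4.99 in shScr2. It was detected on both mir128 arrays, on no shScr1 array and on 1 shScr2 array, and both mir128 arrays lay above the rest. Against shScr1 the log2 difference of 0.59 ± 0.19 did not pass, limma's adjusted p 0.0727. Taking for the undetected arrays the lowest signal detected on each, the probe was at least 1.23-fold higher than in shScr1. That bound is on group means and leaves out the spread between arrays. The 95% interval of the log2 difference from shScr1 was 0.13 to 1.04. Against the mean the log2 difference was 0.44 ± 0.16, adjusted p 0.0932. ILMN_3053693, annotated to another Synm transcript, read 5.06 and 4.98 in mir128, against 5.11 and 4.85 in shScr1 and 4.93 and 4.56 in shScr2. These groups overlapped, and the log2 difference from the mean was 0.16 ± 0.17, adjusted p 0.533. The untested probe ILMN_2636266 read 4.68 and 5.13 in mir128, against 4.48 and 4.80 in shScr1 and 4.68 and 4.78 in shScr2.

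Nes encodes nestin, a filament protein of proliferating and progenitor cells. ILMN_2703267 read 5.87 and 4.97 in mir128, against 4.56 and 4.36 in shScr1 and 5.14 and 4.69 in shScr2. Mir128 array A was the highest, while mir128 array B lay within the range of shScr2. The probe was detected on both mir128 arrays, no shScr1 array and 1 shScr2 array. The log2 difference of 0.96 ± 0.32 from shScr1 did not pass, limma's adjusted p 0.0794. The group mean was at least 1.40-fold higher in mir128 than in shScr1, a bound that was not tested. That bound rests on mir128 array A, since array B, at 4.97, lay near the lowest signals detected on the shScr1 arrays, 4.89 and 4.98. The 95% interval of the log2 difference from shScr1 was 0.19 to 1.73. The log2 difference from the mean was 0.73 ± 0.28, adjusted p 0.0983, and without mir128 array A it was 0.28. The undetected probe ILMN_2904590 read 4.62 and 4.64 in mir128, against 4.34 and 4.96 in shScr1 and 4.82 and 4.31 in shScr2.

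Krt8 and Krt18 encode keratins 8 and 18, which pair with each other in simple epithelia. Both passed the test against the mean of the scrambled groups, at signals close to the background. Each was detected on both mir128 arrays and on 1 of 4 scrambled arrays, so each entered the test only through the group where it is high, and its log2 change is measured against mostly undetected arrays. Krt8 ILMN_1221157 read 5.40 and 5.45 in mir128, against 4.80 and 5.15 in shScr1 and 4.55 and 4.34 in shScr2. It was detected on both mir128 arrays, 1 shScr1 array and no shScr2 array, and both mir128 arrays were the highest. The log2 change against the mean was 0.72 ± 0.17 with limma's adjusted p 0.0230. Against shScr2 the log2 change was 0.98 ± 0.19, adjusted p 0.0179, and the untested bound was at least 1.41-fold higher. Against shScr1 the log2 difference of 0.45 ± 0.19 did not pass, adjusted p 0.140.

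Krt18 ILMN_2711267 read 5.19 and 5.12 in mir128, against 4.34 and 4.24 in shScr1 and 4.50 and 4.99 in shScr2. It was detected on both mir128 arrays, no shScr1 array and 1 shScr2 array, again with both mir128 arrays highest. Its log2 change against the mean was 0.63 ± 0.18, adjusted p 0.0438 in limma. Against shScr1 the log2 change was 0.86 ± 0.21, adjusted p 0.0332, and the untested bound was at least 1.16-fold higher. Against shScr2 the log2 difference of 0.41 ± 0.21 did not pass, adjusted p 0.210. Without background correction both log2 values against the mean were 0.20 and neither passed, at adjusted p 0.102 for Krt8 and 0.111 for Krt18. In the authors' processed values, on their own scale, both differences were 0.07 and neither passed. The Krt8 call against the mean was lost without any 1 of the 4 scrambled arrays, at adjusted p 0.0511 to 0.0830, and the Krt18 call held only without shScr2 array B, at 0.0475, among the 6 arrays left out in turn. The Krt8 call against shScr2 was lost without either shScr2 array, at 0.0846 and 0.128, and the Krt18 call against shScr1 without mir128 array A, at 0.0698, or either shScr1 array, at 0.151 and 0.183.

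**Figure D3:**
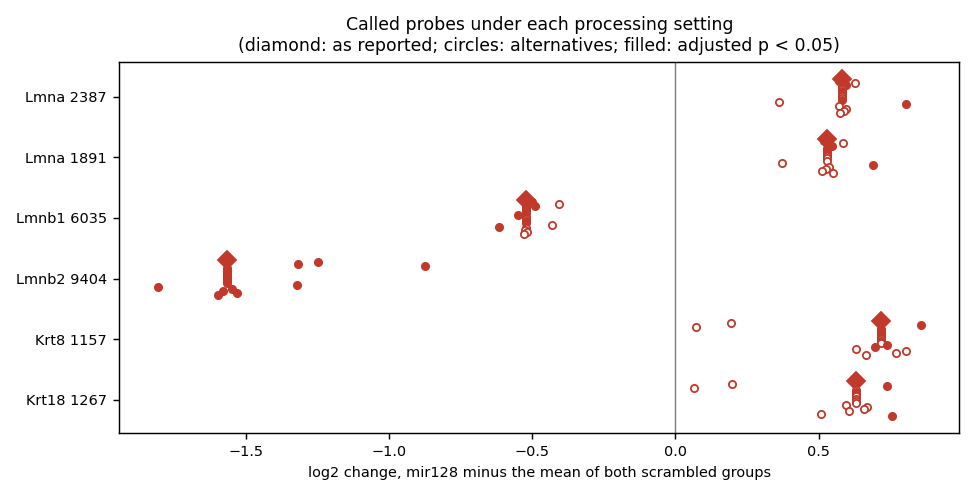
Log2 change in mir128 against the mean of both scrambled groups (horizontal axis) of the 6 member probes that passed, under each processing setting; the diamond is the reported value, circles are alternatives, and filled marks have an adjusted p under 0.05. Lmnb2 is filled throughout, from -1.81 to -0.88, and Krt8 and Krt18 move to 0.20 and 0.07 in the 2 settings without this background correction.

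The scrambled groups were also set against each other, to show how far the members vary between control constructs. No member probe passed in shScr2 against shScr1 by limma, beside 0.0831% of all probes past the adjusted threshold. Without adjustment, 1 of 15 member probes had a p under 0.05, and the share of all probes at that threshold is not given here. That probe was Krt8, with a log2 difference of -0.53 ± 0.19 in shScr2 relative to shScr1 and adjusted p 0.393. Nes ILMN_2703267 differed by 0.46 and Krt18 by 0.45, with adjusted p 0.709 and 0.523. For Lmnb2 the difference was 0.14, adjusted p 0.898.

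Other intermediate filament genes were mostly below detection. Of 28 on the array, 19 were detected on no array and 6 were tested, of which 2 rose against the mean of both scrambled groups, none fell and 4 did not pass, with a median log2 change of 0.72 beside 0.0037 over all genes. Over all genes 14.7% were higher and 12.8% lower. Krt7, 1 of those 2, entered the test only through its mir128 arrays, and with detection on all 6 arrays only Krt19 was counted. Krt19, a keratin of simple epithelia without a tail domain, read 9.06 and 9.32 in mir128, against 7.75 and 7.48 in shScr1 and 7.78 and 7.73 in shScr2. Its log2 change was 1.50 ± 0.16, adjusted p 0.00232, or 2.84-fold. Krt7 read 5.99 and 5.81 in mir128, against 4.53 and 4.76 in shScr1 and 4.78 and 5.30 in shScr2, with a log2 change of 1.05 ± 0.19, adjusted p 0.0119. Krt7 was detected on 1 of 4 scrambled arrays and was at least 1.95-fold higher in mir128 than in shScr1. The Krt7 call was lost without shScr1 array A, at adjusted p 0.0521, with array weights, at 0.0543, and in the authors' processed values, at 0.12 on their own scale and adjusted p 0.0526.

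Krt7 and Krt19 are also in the list of epithelial and mesothelial markers, of which 7 are on the array and 6 were tested. Those 2 genes rose against the mean, Msln and Cdh1 fell, and the other 2 did not pass, beside 14.7% higher and 12.8% lower over all genes. With detection on all 6 arrays 1 rose and 1 fell. Msln, the mesothelial surface protein mesothelin, changed by -2.05 ± 0.28, adjusted p 0.00429, and Cdh1, which encodes E-cadherin, by -0.64 ± 0.18, adjusted p 0.0392. The Cdh1 call was lost without mir128 array B, at -0.46 and adjusted p 0.0934, and without any 1 of the scrambled arrays, at adjusted p 0.0789 to 0.127. Cdh1 passed in 6 of 18 alternatives in all, with log2 changes from -0.82 to -0.08, and its highest adjusted p, 0.414, came with arrays scaled to a common median. The summed background-corrected intensity of the 7 markers was 1351 to 2080 on the mir128 arrays and 1141 to 1359 on the scrambled arrays. The part of other cells in the keratin values was not tested.

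Of the linkers and chaperones of intermediate filaments, 19 were on the array and 14 tested, of which 4 rose, 2 fell and 8 did not pass, with a median log2 change of 0.45, beside 14.7% higher and 12.8% lower over all genes. Eppk1 and Dtna, counted as higher, entered the test only through their mir128 arrays, and with detection on all 6 arrays 2 were higher and 2 lower. Pkp2, the desmosomal plaque protein plakophilin 2, read 8.31 and 8.40 in mir128, against 5.45 and 5.10 in shScr1 and 6.33 and 5.91 in shScr2. Its log2 change was 2.66 ± 0.19, adjusted p 0.000744, and its other probes gave 2.87 and 1.82. Eppk1, which encodes epiplakin, a plakin that binds keratin and vimentin, was detected on no scrambled array. Its log2 change was 1.33 ± 0.19, limma's adjusted p 0.00503, and the untested bound was at least 1.96-fold higher in mir128. Hspb1, the small heat shock protein that chaperones filaments, changed by 1.12 ± 0.23, adjusted p 0.0167. Ppl, the plakin periplakin, changed by -0.97 ± 0.16, adjusted p 0.00804, whereas its dimmer second probe gave -0.08. With arrays scaled to a common median the Ppl change was -0.67 and did not pass, adjusted p 0.0664.

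The remaining 2 calls of that list, named after their values were seen, were Dtna, which encodes the dystrophin-associated protein dystrobrevin alpha, at 1.04 ± 0.25 with adjusted p 0.0264, and the ubiquitin ligase gene Trim32 at -0.59 ± 0.14 with adjusted p 0.0245. A dimmer second probe gave 0.53 for Dtna and -0.34 for Trim32, and neither passed, limma's adjusted p 0.0511 and 0.432. The Hspb1 call was lost without any 1 of the scrambled arrays, at adjusted p 0.0501 to 0.0644, and likewise the Trim32 call, at 0.0819 to 0.0902. The Dtna call was lost without mir128 array B, at 0.81 and adjusted p 0.0930, and without any scrambled array but shScr2 array A, at 0.0570 to 0.0854. Plec, also named after its values were seen, encodes plectin, which ties vimentin to the cytoskeleton, and its log2 difference was -0.21 ± 0.14, adjusted p 0.314.

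**Figure D4:**
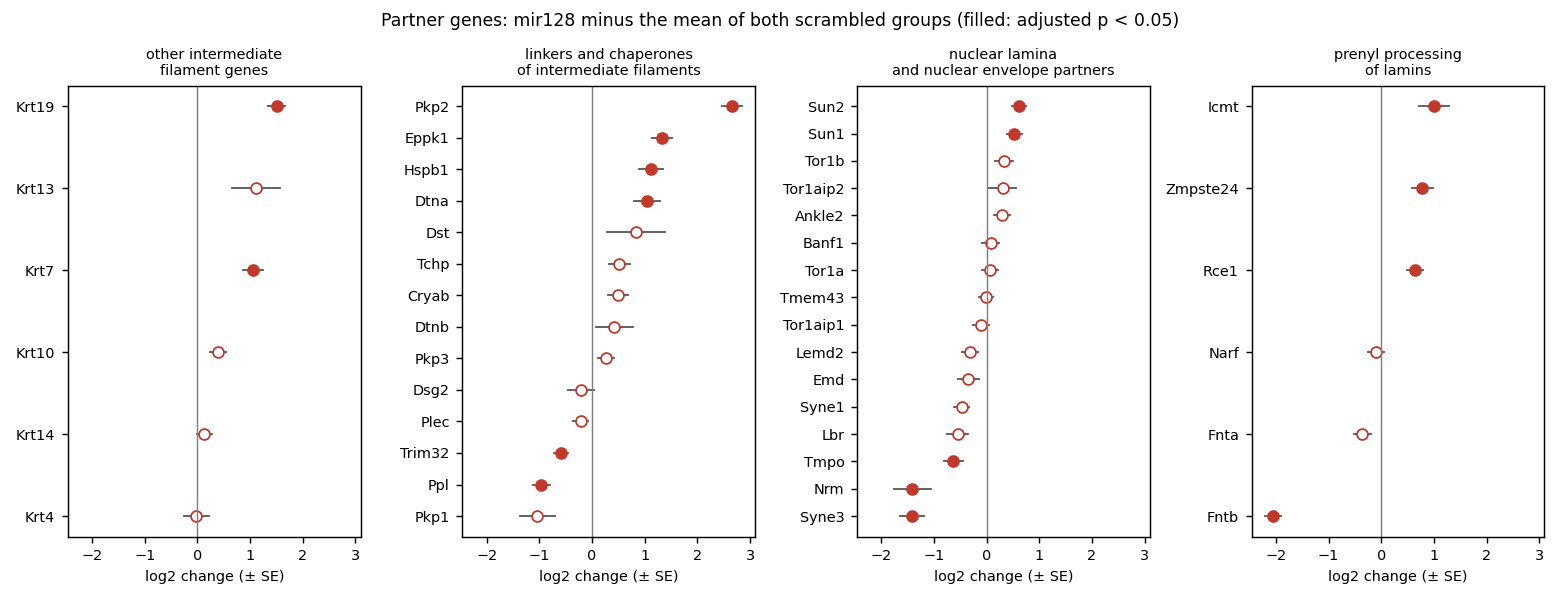
Log2 change in mir128 against the mean of both scrambled groups (horizontal axis) of the tested genes of 4 lists, by their brightest probe, with bars for the SE from limma and filled points for an adjusted p under 0.05. Fntb at -2.06 and Pkp2 at 2.66 lie at the opposite ends.

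Among the partners of the lamina at the nuclear envelope, 18 were on the array and 16 tested, of which 2 rose, 3 fell and 11 did not pass, with a median log2 change of -0.06, beside 14.7% higher and 12.8% lower over all genes. Syne3, the nesprin that binds plectin at the outer nuclear membrane, read 5.47 and 6.07 in mir128, against 6.88 and 7.21 in shScr1 and 7.13 and 7.54 in shScr2. Its log2 change was -1.42 ± 0.23, adjusted p 0.00806, and a second probe gave -1.05. Nrm, which encodes nurim of the inner nuclear membrane, changed by -1.41 ± 0.35, adjusted p 0.0276, and by -0.74 without mir128 array A. Sun2 and Sun1 encode the inner membrane proteins that join lamins to nesprins. Sun2 changed by 0.61 ± 0.14, adjusted p 0.0206, and Sun1 by 0.53 ± 0.15, adjusted p 0.0407, with -0.02 on its second probe.

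Tmpo, named after its values were seen, encodes the lamina-associated polypeptides and changed by -0.63 ± 0.18, adjusted p 0.0449, with -0.91 and -1.25 on its other probes. Lbr and Emd, also named after their values were seen, encode the lamin B receptor and emerin, and their log2 differences of -0.55 ± 0.20 and -0.35 ± 0.20 did not pass, adjusted p 0.0810 and 0.236. The calls of Nrm, Sun2, Sun1 and Tmpo were each lost without any 1 of the scrambled arrays, at adjusted p 0.0694 to 0.135. Without mir128 array A the Sun1 call was lost at 0.47, adjusted p 0.0811, and the Tmpo call at -0.47, adjusted p 0.135.

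Lamins B1, B2 and prelamin A are farnesylated near their C-terminal end and trimmed, and all 6 genes listed for these steps were tested, of which 3 rose, 1 fell and 2 did not pass, with a median log2 change of 0.27, beside 14.7% higher and 12.8% lower over all genes. Fntb, the beta subunit of the farnesyltransferase, read 8.78 and 8.98 in mir128, against 10.80 and 10.96 in shScr1 and 10.97 and 11.01 in shScr2. No mir128 array came near the scrambled arrays, and the log2 change of -2.06 ± 0.15, adjusted p 0.000771, was 4.17-fold lower and passed under all 18 alternatives. Rce1, the protease that removes the last residues, changed by 0.64 ± 0.15, adjusted p 0.0261. Icmt, the methyltransferase that follows it, changed by 1.00 ± 0.28, adjusted p 0.0401. Zmpste24, the protease that releases mature lamin A, changed by 0.78 ± 0.20, adjusted p 0.0325, with 0.58 and -0.34 on its other probes. Of these 3, the Icmt and Zmpste24 calls were lost without mir128 array A, at 0.50 and 0.48 with adjusted p 0.0606 and 0.0714, and all 3 without any 1 of the scrambled arrays, at adjusted p 0.0562 to 0.110. The number higher was also 1 with arrays scaled to a common median or with no detection filter, where Rce1 alone passed, and 0 with array weights.

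Genes of the cell cycle were followed as a further group, since Lmnb1 is known for low transcript levels in cells that have left the cycle into senescence. Of 11 on the array, 10 were tested, of which 9 fell against the mean of both scrambled groups, none rose and 1 did not pass, with a median log2 change of -1.23, beside 12.8% lower over all genes. Ccna2, counted among the 9, was detected on 2 shScr2 arrays alone, and with detection on all 6 arrays 8 fell. Top2a, the topoisomerase of mitotic chromosomes, read 7.55 and 8.37 in mir128, against 10.04 and 10.04 in shScr1 and 9.90 and 10.02 in shScr2, a log2 change of -2.04 ± 0.24 with adjusted p 0.00298. Rrm2, a ribonucleotide reductase subunit, changed by -1.41 ± 0.21, adjusted p 0.00620. Mcm2 and Mcm5, subunits of the replicative helicase, changed by -1.14 ± 0.21 and -1.27 ± 0.24, adjusted p 0.0109 and 0.0136, and the Mcm5 call was lost without shScr1 array B, at 0.0542. The number of cell cycle genes past the threshold was 3 without shScr1 array B and 4 without any other 1 of the scrambled arrays. Their part in the Lmnb1 and Lmnb2 values was not tested.

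Markers of the other cells such a culture could hold were set beside these values. The 6 fibroblast markers summed to 4136 to 4852 on the mir128 arrays and 4053 to 5647 on the scrambled arrays. Of 5 tested 1 rose and 1 fell against the mean, beside 14.7% higher and 12.8% lower over all genes. Dcn, which encodes the proteoglycan decorin, read 10.26 and 9.89 in mir128, against 10.33 and 10.13 in shScr1 and 7.87 and 7.83 in shScr2. Its log2 change was 1.04 ± 0.17 against the mean, adjusted p 0.00762, and 2.23 against shScr2, adjusted p 0.00207, but -0.15 against shScr1, adjusted p 0.604. With all scrambled arrays pooled as 1 group, Dcn had adjusted p 0.351. Pdgfra, a growth factor receptor, changed by -0.97 ± 0.20 against the mean, adjusted p 0.0175, and its call was lost without any 1 of the scrambled arrays, at 0.0568 to 0.0667, and with arrays scaled to a common median, at 0.188. Of the 6 endothelial markers, Cdh5, Emcn and Vwf were detected on no array. Kdr was detected on all 6 arrays, at 4.99 to 5.74, and Tek on 3. Neither passed against the mean, with log2 differences of -0.22 and -0.25 and limma's adjusted p 0.442 and 0.466. Pecam1 was undetected on every array by the brighter of its 2 probes, though not by both. The endothelial sum was 47.6 to 64.0 on the mir128 arrays and 52.7 to 82.0 on the scrambled arrays. The 4 leukocyte markers summed to 57.7 to 98.0 on the mir128 arrays and 21.6 to 38.1 on the scrambled arrays. Lyz2, which encodes lysozyme, was the 1 of them tested, and it rose by 1.36 ± 0.25 on the log2 scale against the mean, adjusted p 0.0116. It read 5.84 and 6.65 in mir128, against 4.91 and 4.56 in shScr1 and 5.03 and 5.05 in shScr2, and its call was lost in the authors' processed values, at adjusted p 0.0534. A dimmer Lyz2 probe gave 0.51 and did not pass, limma's adjusted p 0.0532. Ptprc, which defines leukocytes, Adgre1 and Cd52 were detected on no array.

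The probes most like 3 members in pattern were taken by Pearson's r over the 6 arrays, as a description, since the arrays fall into 3 groups. For Vim these were Amz1 at 0.993, Socs4 at 0.981 and Cmpk2 at 0.980, and 26 of 12451 probes exceeded 0.95. For Des they were Trip6 at 0.988, Mtf1 at 0.978 and Zbtb21 at 0.977, and 11 probes exceeded 0.95. For Lmnb1 ILMN_2916035 they were Rnf167 at 0.999, Mapk12 at 0.998 and Ppp4c at 0.997, and 511 of 12450 probes exceeded 0.95, far more than for Vim or Des.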

How the data were processed

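The members and lists were chosen with earlier results of these data known. The authors deposited linear bead-array intensities, with detection p-values, of 25697 probes on 6 arrays, per the file headers, and a table of processed log2-like values. The log2 scale of the authors' deposited table was judged from its range. How it was transformed is not given in the sources used here. Every column of it has a median of about 7.77. Over 3855 bright probes, centred, the correlation of an array with its column in that table was 0.977 to 0.979, and with other columns at most 0.828. GenomeStudio 2011.1, lumi and limma are named in the submitters' processing notes without a role. Gene symbols came from the platform annotation: 23978 probes had 1 symbol, 1719 had none, and 23962 matched the current gene table with 0 symbols changed.

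The neqc function of limma 3.58.1 under R 4.3.3 was applied to the intensities, and it uses detection p-values for the background, adds an offset of 16 and quantile-normalizes. The 13236 probes detected (p under 0.05) on at least 2 arrays were fitted with lmFit and eBayes over all 6 arrays, with 3 residual and 3.63 prior degrees of freedom, and p-values were adjusted by Benjamini-Hochberg at 0.05. The fit was tested on simulated data. A probe undetected on every array of a group got a lower bound from the lowest detected signal of each array. The bound compares group means and leaves out the spread between arrays. The number of arrays limits the precision. Lists were counted by each gene's brightest probe, and up to 4 genes per list with the smallest adjusted p against the mean of both scrambled groups were named. Alternatives changed the background, scaling, filter, variance model, probe summary and arrays used. Promoters and microRNAs came from RefSeq tables.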

Additional observations from a re-analysis of the deposited data

How the results depend on the processing

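Values were recomputed under 18 alternatives per member where each could be fitted. Slide as a block was not run, because the file gives no slide. The 11 probes past the threshold in shScr2 against shScr1 became 36 without background correction, 6 with arrays scaled to a common median, 31 in the authors' processed values, 7 with detection on all 6 arrays, 165 with only the 2 groups fitted, 43 with a trended robust prior, 460 with array weights and 0 to 165 with 1 array left out. Against shScr1 the 2712 probes became 1670 with median scaling, 1388 with only the 2 groups and 1749 with weights. Against shScr2 the 2458 became 1180 with only the 2 groups and 1569 with weights, and against the mean the 3509 became 1835 with weights. With 1 array left out they ranged from 225 to 4538, from 255 to 4144 and from 1436 to 4796, highest without mir128 array B and lowest without shScr1 array B (shScr2 array A for the comparison with shScr2), and each of the 4 scrambled arrays left out lowered all 3 counts. Fewer arrays leave fewer degrees of freedom; other causes were not tested. Member probes past the threshold numbered 4 against shScr1, and 2 with median scaling, 2 with only the 2 groups, 7 with the trended prior, 1 with weights and 0 to 8 with 1 array left out. Against shScr2 they numbered 2, and 4 without background correction, 1 with detection on all 6 arrays, 5 with the trended prior, 1 with weights and 0 to 8 with 1 array left out. Against the mean they numbered 6, and 3 with median scaling, 1 with weights and 1 to 8 with 1 array left out. Median scaling moved the median of all probes against the mean to 0.18, with 1955 higher and 784 lower, beside 1774 and 1735. With 1 array left out, Vim differences ranged from -0.0299 to 0.36 against shScr1 and from -0.00658 to 0.39 against the mean, Des from -0.42 to 0.14 against shScr2, and Synm ILMN_3053693 from -0.0892 to 0.17 against shScr1. The signs turned without mir128 array B for Vim, without shScr2 array B for Des, and without mir128 array A (-0.0035) or shScr1 array B for Synm, none of them past the threshold.

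The labels do not say that arrays of 1 letter share a culture. Differences between A and B correlated at 0.125, 0.157 and 0.111 between groups, and with 2 letters whether the letters pair arrays is not settled. With the letter as a replicate block, 3 member probes passed against shScr1, 2 against shScr2 and 5 against the mean. Of all 13236 probes tested, 2619, 2373 and 3530 passed in these comparisons, and 2 passed in shScr2 against shScr1. The Lmna ILMN_2662387 and ILMN_3121891 and Krt18 values against the mean then had adjusted p 0.0535, 0.0563 and 0.0550, Lmna ILMN_3121891 and Lmnb1 ILMN_2916035 against shScr1 had 0.0570 and 0.0544, and Tmpo had 0.0603. Lmna ILMN_2597710 and Nes ILMN_2703267 passed against the mean, at 0.0458 and 0.0407, and Nes ILMN_2703267 against shScr1, at 0.0367.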
